A study of Mus musculus with 9 samples.

Results

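Replication-dependent histone genes were followed in the mouse extrahepatic bile duct (EHBD) 24 hours after bile duct ligation (BDL). Members were taken by symbol, as protein-coding Gencode genes named H2ac, H2bc, H3c or H4c with a number, together with H1f1 to H1f5. This gave 67 genes among the 55822 gene IDs of the count table: 5 of linker histone H1, 18 of H2A, 19 of H2B, 12 of H3 and 13 of H4. The rule reads symbols and gene type only, and it was set with earlier results of these data known. Each library was made from the whole EHBD of 1 mouse and sequenced as bulk RNA. The BDL group held 5 adult C57BL/6 mice (2 male and 3 female) whose duct was tied off at its distal end near the duodenum, and the Sham group held 4 adult C57BL/6 mice (2 male and 2 female) that had only a laparotomy. Libraries carry the replicate numbers of the labels, which are 3, 4, 6, 8 and 10 for BDL and 1, 2, 5 and 7 for Sham, and values are listed in that order.

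Replication-dependent histones package newly made DNA, and their genes lie in clusters that are switched on as cells enter S phase. Their mRNAs are unusual in that most end in a short stem-loop and carry no poly(A) tail, and the stem-loop is bound by SLBP, which directs cleavage, translation and decay of the message. Some of these genes can also be read through the stem-loop to a downstream poly(A) site, chiefly in cells that have stopped dividing. The library kit used here starts cDNA from an oligo(dT) primer, which pairs with a poly(A) tail and can also pair with a run of A inside a message. Levels below are thus counts of what was primed, and a high or low count is not an amount of mRNA.

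The stem-loop and the bases just before it were read from GRCm39 for each member. The motif GGNNNTTTTNAGNNCC was searched on the coding strand in the 300 bases after each annotated stop codon, and 63 of 67 members held it, 60 of them after the stop codon of the canonical transcript. The same window after the canonical stop held it in 71 of 21656 protein-coding genes (0.328%), and 11 of these are not members. The stem-loop itself hardly varied: 42 members had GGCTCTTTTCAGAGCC, and all 63 fell into 6 sequences. The bases before it varied more, and they are shown for 8 of the members that were higher or lower after BDL, with the stem-loop in capitals.
H2ac24 (chr13:22017199-22017228, minus strand): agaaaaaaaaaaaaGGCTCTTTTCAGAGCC
H2ac23 (chr13:21995054-21995083, plus strand): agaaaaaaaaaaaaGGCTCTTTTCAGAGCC
H2ac8 (chr13:23754842-23754871, minus strand): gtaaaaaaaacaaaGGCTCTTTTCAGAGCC
H2ac4 (chr13:23935541-23935570, plus strand): ttaaccaaaacaaaGGCTCTTTTCAGAGCC
H4c9 (chr13:22225136-22225165, minus strand): caatgctacttaaaGGCCCTTTTTAGGGCC
H2ac19 (chr3:96147100-96147129, minus strand): cgagctcctaaaaaGGCTCTTTTCAGAGCC
H2bc4 (chr13:23868616-23868645, plus strand): tagcgaattccaaaGGCTCTTTTCAGAGCC
H1f2 (chr13:23923481-23923510, plus strand): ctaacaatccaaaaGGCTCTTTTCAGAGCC
In the 20 bases before the stem-loop, the longest run of A was 12 bases in H2ac23 and H2ac24 and 8 bases in H2ac8, against a median of 3 over the 63 members. No other member reached 8, a limit that was set after the values were seen.

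Copies of these genes are close enough that a read cannot always be given to 1 of them. Cut into stretches of 31 bases, the annotated transcripts of 17 members had under 10% of stretches that no other gene shares, and 24 members had at least 50%. H2ac23 shared 93.8% of its stretches with H2ac24, and H2ac18 and H2ac19 had none of their own. Sums over such copies and over each class do not depend on how the counting split reads within them, and they are given beside the single genes.

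BDL libraries had 23067967 to 29991945 counts and Sham libraries 24101163 to 27025227 (exact permutation test of the means, two-sided, p = 0.921). Levels are given as normalized counts, that is, counts over the DESeq2 size factor of each library, with 1.22 to 1.63 in BDL and 0.434 to 1.17 in Sham libraries (p = 0.00794 in the same exact test, which can go no lower). Genes of pancreatic acinar cells moved with surgery: all 19 markers in the table were lower after BDL, and they took 0.00765% to 2.35% of BDL counts and 16.8% to 46.7% of Sham counts. Biliary epithelial markers, which define the labelled tissue, were at 1.71% to 2.37% of BDL counts and 0.251% to 0.648% of Sham counts, with 7 of 10 higher and 1 lower. Of 12 neutrophil markers, 9 were higher, at 0.0170% to 0.154% of BDL counts and 0.00149% to 0.0946% of Sham counts. Of 11 markers of immune progenitors and lymphoid cells, 2 were lower and the others did not pass, at 0.0229% to 0.0888% of BDL counts and 0.00929% to 0.0596% of Sham counts. Of 7 male germ cell markers, 3 were at 0 in every library and 2 were tested, of which 1 was lower, at 1.71e-05% to 0.000143% of BDL counts and 0.000118% to 0.000929% of Sham counts. The part of these cells in the histone results was not tested, and in whole tissue fewer cells of a type and less RNA per cell cannot be told apart.

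Between BDL and Sham EHBDs, the summed histone signal overlapped, while the shares of H2A, H2B and H1 in it did not. The 67 members together had 8169.7, 4488, 3982, 7186 and 8661 normalized counts in BDL EHBDs, against 6244, 7031, 5593 and 6245 in Sham EHBDs. The groups overlapped, with means of 6497 ± 2139.8 (SD, n = 5) in BDL and 6278 ± 589 (SD, n = 4) in Sham EHBDs. Members were a minor part of each library, at 0.0226% to 0.0485% of BDL counts and 0.0107% to 0.0270% of Sham counts. H2A made up 56.4% to 77.5% of the members' counts in BDL libraries and 27.5% to 31.7% in Sham libraries, while H2B made up 10.2% to 25.2% in BDL and 41.4% to 53.4% in Sham libraries. H1 made up 8.60% to 13.9% in BDL and 15.6% to 22.4% in Sham libraries. For these 3 classes every BDL library lay on 1 side of every Sham library, whereas the shares of H3 (0.258% to 1.08% in BDL and 1.03% to 1.76% in Sham libraries) and H4 (2.26% to 3.397% in BDL and 2.18% to 3.25% in Sham libraries) overlapped.

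Each class was summed per library, as a description with no test. H2A, the core histone that pairs with H2B, summed to 4568 ± 1795 normalized counts in BDL (SD, n = 5) and 1836 ± 264 in Sham EHBDs (SD, n = 4), with all BDL libraries above all Sham libraries. H2B summed to 1018 ± 468 in BDL and 2944 ± 371 in Sham EHBDs, with all BDL libraries below all Sham libraries. Linker histone H1, which binds between nucleosomes, summed to 687 ± 256 in BDL and 1242 ± 248 in Sham EHBDs. H3 summed to 38.5 ± 27.7 in BDL and 85.1 ± 14.9 in Sham EHBDs, and H4, its partner in the nucleosome core, to 186 ± 77.1 in BDL and 172 ± 39.7 in Sham EHBDs. For H1, H3 and H4 the groups overlapped. The H2A sum rested on a single pair of copies. Without H2ac23 and H2ac24, an alternative added after seeing the data, H2A summed to 759.6, 413, 556, 742 and 731 in BDL EHBDs, against 1638, 2077, 1555 and 1598 in Sham EHBDs, so that every BDL library then lay below every Sham library.

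**Figure D1:**
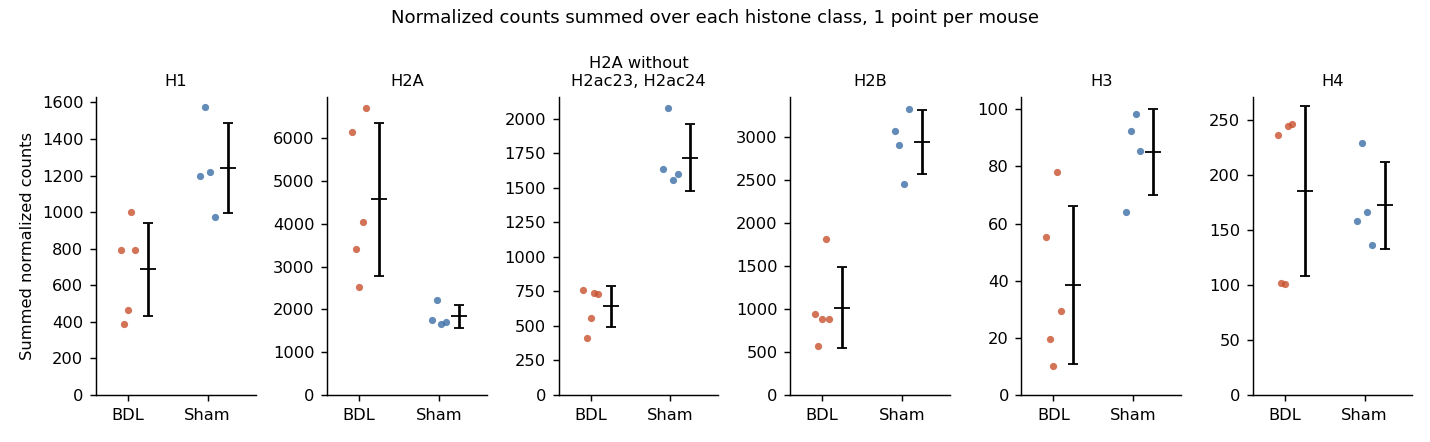
Normalized counts summed over the members of each histone class (y axis, linear from 0, a scale per panel), with 1 point per mouse, BDL and Sham on the x axis, and the mean with its SD as a bar. H2A lies higher in BDL (mean 4568) than in Sham EHBDs (1836), and without H2ac23 and H2ac24 it lies lower (640.3 in BDL and 1717 in Sham EHBDs), as does H2B (1018 in BDL and 2944 in Sham EHBDs).

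Gene by gene, 53 members had at least 10 counts over the 9 libraries and were tested with edgeR's quasi-likelihood test, adjusted over all 21299 genes tested. The other 14 had too few counts, and 4 of them were at 0 in every library. At an adjusted p under 0.05, 16 members were higher after BDL, where 21.4% of all genes tested were, and 8 were lower, where 19.9% of all genes were. For 13 members all BDL libraries lay above all Sham libraries, against 19.2% of all genes, and below for 8, against 19% of all genes. The median log2 fold change of the tested members was 0.48, beside -0.03 over all genes tested. The members' median was -0.14 over the 26 that filterByExpr kept, and 0.16 to 0.80 with 1 library left out, lowest without BDL replicate 8. Most members were scarce, and 43 of the 67 had a mean under 10 normalized counts in both groups. Of the 16 higher members, 8 had BDL means under 10, whereas none of the 8 lower members had a Sham mean under 10. Size factors were 1.22 to 1.63 in BDL and 0.434 to 1.17 in Sham libraries, so an equal normalized level gave more counts in BDL. A scarce gene could thus be tested and pass more readily as higher than as lower. The part of this in the contrast was not tested. The number of higher members was 10 without BDL replicate 10 or without Sham replicate 1, and 9 when Sham was reduced to replicates 1 and 5, its libraries of least acinar share.

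H2A held most of the higher members, with close copies counted as separate genes. Over all genes tested, 21.4% were higher and 19.9% were lower. Of 16 H2A members tested, 11 were higher and 3 were lower, with a median log2 fold change of 3.71 (3.30 with members absent from every Sham library set at their bound). Of these 11, 4 had no counts in Sham libraries and 6 had BDL means under 10. Such members met the filter of 10 counts through BDL libraries alone or nearly so. The H2A count and median thus depend on the filter and do not stand for the class. Of 13 H2B members, none was higher and 2 were lower (median -0.52). No H2B member was higher at an unadjusted p under 0.05 either, or with DESeq2. Of 5 H1 members, 2 were higher and 1 was lower (median 0.44). Of 9 H3 members, 1 was higher and 1 was lower (median -0.19), and of 10 H4 members, 2 were higher and 1 was lower (median -0.81), or 2 lower without Sham replicate 7. The libraries on which the H1, H2A and H3 counts depend are named with those genes. Whether the classes differ in these counts was not tested.

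**Figure D2:**
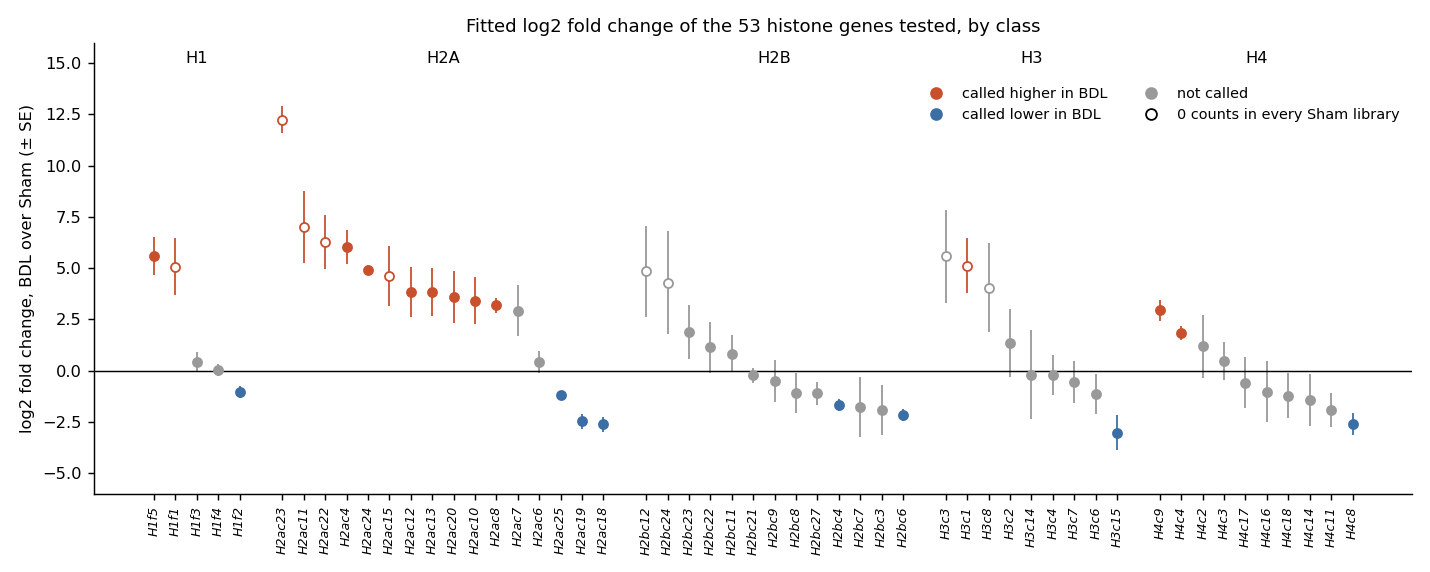
Log2 fold change of BDL over Sham (y axis) with its standard error for the 53 members tested, ordered by size within each class on the x axis. Red points passed as higher and blue points as lower after BDL, grey points did not pass, and open points had 0 counts in every Sham library, so that their fitted size depends on the prior count and is no bound. H2A holds 11 of the 16 red points and H2B holds none.

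H2ac24 had the highest counts of the members after BDL. H2ac24 (ENSMUSG00000094777, chr13:22017196-22017677, minus strand) encodes an H2A protein. It had 4766, 2625, 1748, 2790.1 and 5263 normalized counts in BDL EHBDs, against 109.6, 150.5, 98.3 and 118 in Sham EHBDs. The lowest BDL library was thus far above the highest Sham library. The log2 fold change was 4.90 (standard error, SE, 0.25, adjusted p = 7.25e-06 by edgeR). Per kb of annotated transcript it was the highest member in BDL EHBDs, at 7134 normalized counts, followed by H2ac23 at 1020.0, H2bc4 at 452 and H1f2 at 341. In Sham EHBDs the order began with H2bc4 at 1468, H2ac19 at 1226, H1f2 at 737 and H2ac18 at 649 per kb, and H2ac24 stood at 247.

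H2ac23 (ENSMUSG00000094248, chr13:21994635-21995114, plus strand), its close copy, had 619, 373, 218, 518 and 720.5 normalized counts in BDL EHBDs and 0 counts in all 4 Sham libraries. H2ac23 passed with an adjusted p of 4.10e-05. With the split as counted and 3 counts assumed in the summed Sham libraries, it was 476-fold higher (285-fold without Sham replicate 1). This is no bound if Sham reads of H2ac23 were given to H2ac24. Since few of their stretches differ, the split between the copies is uncertain: H2ac24 was given 84.3% to 88.9% of the pair's counts in BDL libraries and 100% in Sham libraries. Summed before the fit, H2ac23 and H2ac24 had a log2 fold change of 5.10 (SE 0.25, adjusted p = 7.25e-06). The pair made up 77.9% to 89.1% of H2A counts in BDL libraries, against 5.95% to 6.85% in Sham libraries.

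The promoters of the copies are nearly the same as well. In the 250 bases before the annotated start, H2ac24 and H2ac23 share an unbroken run of 220 bases, which ends at the start of H2ac24 and 30 bases before that of H2ac23. Each starts back to back with an H2B gene, with 233 bases between H2ac24 and H2bc24 and 265 bases between H2ac23 and H2bc23. The promoter of H2ac24 is shown beside that of H2ac19, which was lower after BDL, both from GRCm39 and written 5′ to 3′ toward the start, with matches to CCAAT, to the box TATAAA and to the octamer ATTTGCAT on either strand in capitals.
H2ac24 (chr13:22017678-22017927, minus strand): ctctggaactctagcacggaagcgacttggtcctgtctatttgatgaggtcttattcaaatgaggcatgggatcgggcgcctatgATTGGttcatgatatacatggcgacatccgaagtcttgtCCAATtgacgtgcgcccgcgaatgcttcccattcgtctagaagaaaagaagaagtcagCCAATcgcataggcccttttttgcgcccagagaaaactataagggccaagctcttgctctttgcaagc
H2ac19 (chr3:96147593-96147842, minus strand): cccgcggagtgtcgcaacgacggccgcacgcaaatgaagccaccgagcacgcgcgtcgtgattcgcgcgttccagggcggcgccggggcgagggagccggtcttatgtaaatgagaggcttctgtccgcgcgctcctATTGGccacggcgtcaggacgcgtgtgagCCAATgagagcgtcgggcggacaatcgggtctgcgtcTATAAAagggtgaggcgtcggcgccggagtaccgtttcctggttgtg
CCAAT, read by NF-Y in other genes, was in the same window of 53 of 67 members (79.1%) and 36.5% of 21770 protein-coding promoters, and all 18 H2A members held it, whichever way they moved. TATAAA was in 49.3% of members and 11.9% of all promoters. It was present in 11 of the 16 higher members and in 1 of the 8 lower ones, which is H2ac19. H2ac24 and H2ac23, the higher members with the most counts in BDL EHBDs, lack it, and several higher members that hold it were scarce. Whether the box goes with the response was not tested. ATTTGCAT, the octamer that POU factors read, was in 22.4% of members and 1.49% of all promoters, in 7 H2A and 8 H2B members and in none of H1, H3 or H4. The motifs do not overlap in these windows, and a match is not a site shown to be in use.

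The next H2A members were far less abundant. H2ac8 (ENSMUSG00000069272) had 155, 72.1, 68.5, 107 and 136 normalized counts in BDL EHBDs, against 17.1, 12.7, 14.4 and 4.61 in Sham EHBDs. The groups did not overlap, and the log2 fold change was 3.18 (SE 0.36, adjusted p = 0.000154 from edgeR). H2ac4 had 8.90 to 39.5 normalized counts in BDL libraries and 0.856 in 1 Sham library, with 0 in the other Sham libraries. It passed with a log2 fold change of 6.03, or 7.59 without Sham replicate 1, the only Sham library with a count. H2ac22, H2ac11 and H2ac15 had no counts in Sham libraries and means of 8.04, 12.8 and 2.31 in BDL EHBDs. With reads split as counted, H2ac22 was at least 7.82-fold higher, H2ac11 12.4-fold and H2ac15 2.25-fold, against 3 counts over the Sham group. These values were 4.68-fold, 7.44-fold and 1.35-fold without Sham replicate 1, and H2ac15 was at 1.49-fold without BDL replicate 10. H2ac13, H2ac12, H2ac10 and H2ac20 had BDL means of 3.97 to 5.87 and Sham means of 0.214 to 0.576, each of which rests on 1 count in 1 Sham library. Without that library their log2 fold changes moved to 5.42 for H2ac13 (3.83 with all libraries, Sham replicate 1 left out), 5.81 for H2ac12 (3.85, Sham replicate 2), 5.34 for H2ac10 (3.42, Sham replicate 2) and 5.89 for H2ac20 (3.60, Sham replicate 7).

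The scarce H2A members passed by little, and they share much sequence with other members. H2ac22 shared 81.5% and H2ac13 84.85% of their stretches with H2ac12. H2ac12 shared 88% and H2ac10 85.9% with H2ac7. H2ac11 shared 73.0% with H2ac23, H2ac15 59.8% with H2ac8 and H2ac20 43.3% with H2ac19. Reads given to these genes may thus belong to other copies. The number of higher H2A members was 6 without BDL replicate 10, without Sham replicate 1 or without Sham replicate 5. H2ac13 did not pass without BDL replicate 10 or without any 1 of the 4 Sham libraries (adjusted p up to 0.126). H2ac12 did not pass without BDL replicate 10 or Sham replicate 1, 5 or 7 (up to 0.0895). H2ac10 did not pass without BDL replicate 3, 6 or 10 or Sham replicate 1, 5 or 7 (up to 0.107). H2ac20 did not pass without BDL replicate 3, 4 or 10 or Sham replicate 1, 2 or 5 (up to 0.113). H2ac15 had too few counts to test without BDL replicate 10 and did not pass without any 1 of the other 8 libraries (up to 0.101). The other 6 higher H2A members, among them H2ac24, H2ac23, H2ac8 and H2ac4, passed in each of the 9 fits of 8 libraries. H2ac6 (log2 fold change 0.43) and H2ac7 (2.93) did not pass.

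The 3 H2A members that were lower were among the more abundant histone genes of Sham EHBDs. H2ac19 (ENSMUSG00000063954, chr3:96147065-96147592, minus strand) had 174, 52.4, 153, 109 and 64.3 normalized counts in BDL EHBDs, against 502, 947, 497 and 643 in Sham EHBDs. H2ac18 (ENSMUSG00000064220, chr3:96152813-96153398, plus strand), its inverted neighbour and copy, had 103, 19.7, 62.3, 52.7 and 48.0 in BDL EHBDs, against 369, 551, 393 and 207 in Sham EHBDs. Neither gene overlapped between the groups. Summed before the fit they had a log2 fold change of -2.52 (SE 0.35, adjusted p = 0.000421 from edgeR). All stretches of H2ac18 are also in Gm20633 (log2 fold change -0.50), a noncoding gene on the opposite strand that did not pass, and Gm20634 (-2.41), which overlaps H2ac18 on its own strand, was lower. H2ac25 (ENSMUSG00000078851, chr11:58845511-58847656, plus strand) had 248, 210.5, 231, 379 and 332 in BDL EHBDs, against 728, 553, 638 and 733 in Sham EHBDs. Its libraries did not overlap either, with a log2 fold change of -1.20 (SE 0.21, adjusted p = 0.00145). H2ac25 shares 71.0% of its stretches with Trim17, a ubiquitin ligase gene, which had 0 to 5.73 normalized counts in BDL and 0 to 18.4 in Sham libraries.

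**Figure D3:**
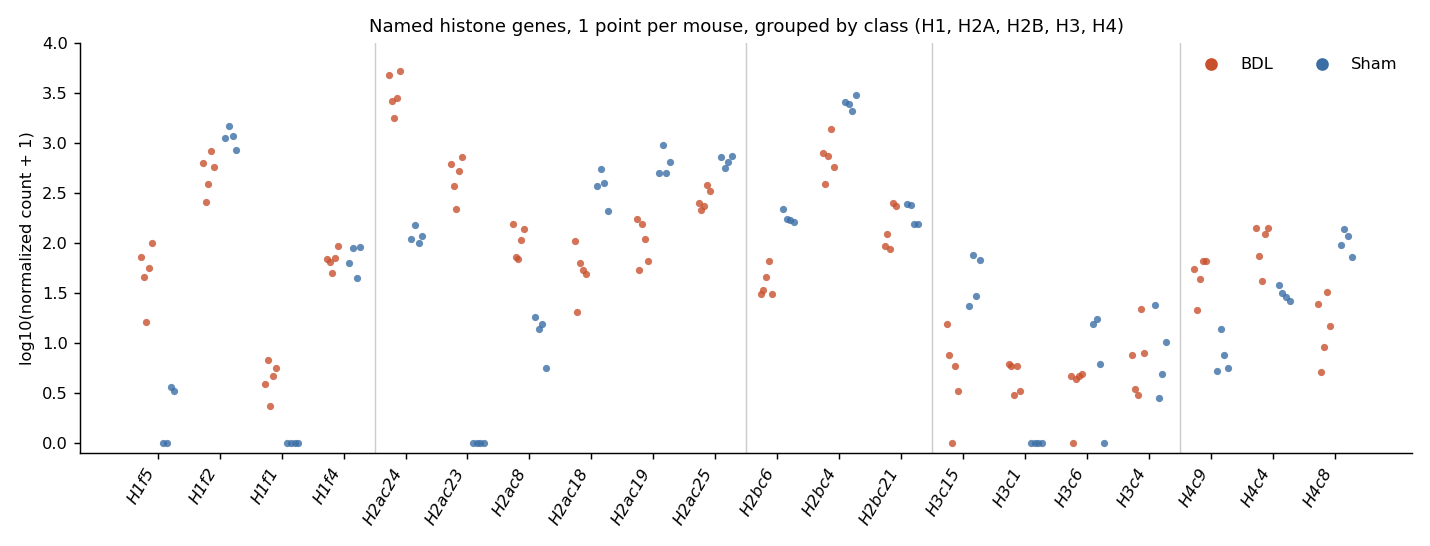
Levels of the 20 histone genes chosen for values in every library, as log10(normalized count + 1) on the y axis, with 1 point per mouse and BDL left of Sham for each gene. H2ac24 and H2ac23 stand highest among the genes that were higher after BDL, and H2bc4 and H1f2 among those that were lower.

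Among the H1 genes, the most abundant was lower and a scarce one was higher. H1f2 (ENSMUSG00000036181, chr13:23922791-23924350, plus strand) had 626, 255, 385, 826 and 569 normalized counts in BDL EHBDs, against 1122, 1465, 1161 and 851 in Sham EHBDs. The groups came close, with 826 as the highest BDL library and 851 as the lowest Sham library. The log2 fold change of H1f2 was -1.03 (SE 0.30, adjusted p = 0.0196 from edgeR), and it did not pass without BDL replicate 10 (0.0503), Sham replicate 2 (0.0539) or Sham replicate 5 (0.0690). H1f2 did not pass either with Sham replicates 1 and 5 only (0.0911) or with totals without acinar markers (log2 fold change -0.66, adjusted p = 0.126). H1f5 (ENSMUSG00000058773, chr13:21964053-21964795, minus strand) had 70.8, 44.2, 15.1, 55.2 and 98.4 in BDL EHBDs, against 0, 0, 2.62 and 2.31 in Sham EHBDs. With Sham libraries at or near 0, the log2 fold change of H1f5 was 5.57 (SE 0.92, adjusted p = 0.00116), or 4.84 without Sham replicate 1 and 6.79 without Sham replicate 5. H1f1 had 1.37 to 5.73 normalized counts in BDL libraries and none in Sham libraries, at least 3.57-fold higher against 3 counts over the group (2.14-fold without Sham replicate 1), and it did not pass without BDL replicate 10 (0.0590) or Sham replicate 1 (0.0502). H1f4 had 68.6, 63.1, 48.6, 69.3 and 92.2 in BDL EHBDs, against 62.5, 87.1, 43.3 and 89.9 in Sham EHBDs, a log2 fold change of 0.03 (SE 0.30) whose sign turned with scaling. H1f3 did not pass either, with 0.44.

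Of the H4 genes, which all encode the same or nearly the same protein, H4c9 and H4c4 were higher and H4c8 was lower. H4c9 (ENSMUSG00000060639, chr13:22224806-22225532, minus strand) had 54.0, 20.5, 42.5, 65.6 and 65.1 normalized counts in BDL EHBDs, against 4.28, 12.7, 6.55 and 4.61 in Sham EHBDs. H4c4 (ENSMUSG00000061482) had 139, 73.7, 41.1, 121 and 141 in BDL EHBDs, against 36.8, 30.8, 27.5 and 25.4 in Sham EHBDs. Neither overlapped between the groups, and their log2 fold changes were 2.93 (SE 0.51, adjusted p = 0.00152) for H4c9 and 1.83 (SE 0.35, adjusted p = 0.00257) for H4c4 from edgeR. H4c8 (ENSMUSG00000060981) had 23.4, 4.10, 8.22, 31.3 and 13.9 in BDL EHBDs, against 95.0, 138, 115 and 71.5 in Sham EHBDs. Every BDL library was lower, with a log2 fold change of -2.60 (SE 0.53, adjusted p = 0.00362). H4c8 lies opposite Gm11335, with which it shares 98.0% of its stretches, and Gm11335 was lower as well (-2.22). The kit does not mark strand, so reads of the 2 genes cannot be told apart. The other 7 tested H4 members did not pass and had means of at most 5.60 in BDL and 10.8 in Sham EHBDs.

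H2B, the partner of H2A in the nucleosome, had no member that was higher, and its main gene fell. H2bc4 (ENSMUSG00000018102, chr13:23867631-23878163, plus strand) held most of the class. It had 782, 391, 736, 1379 and 570.2 normalized counts in BDL EHBDs, against 2558, 2416, 2079 and 2972 in Sham EHBDs. Even BDL replicate 8, the highest of its group, was below every Sham library. The log2 fold change was -1.68 (SE 0.31, adjusted p = 0.00220 from edgeR). H2bc6 (ENSMUSG00000047246, chr13:23766595-23805139, minus strand) had 29.9, 32.8, 44.5, 64.4 and 30.2 in BDL EHBDs, against 219, 170.5, 168 and 161 in Sham EHBDs, again without overlap, and its log2 fold change was -2.16 (SE 0.29, adjusted p = 0.000402). The annotated H2bc6 gene overlaps H4c4 and H1f4 at its ends, and 26.2% of the stretches of H1f4 are also in H2bc6. H2bc21 had 91.9, 121, 86.3, 249 and 232 in BDL EHBDs, against 241, 239, 153 and 154 in Sham EHBDs. The groups overlapped and it did not pass (log2 fold change -0.23, SE 0.37), with a sign that turned when libraries were scaled to totals without acinar markers (0.15). The other 10 tested H2B members had means of at most 9.96 in BDL and 16.03 in Sham EHBDs.

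H3 had the fewest counts of the classes. H3c15 (ENSMUSG00000081058, chr3:96145424-96146443, minus strand) had 14.6, 6.55, 0, 4.91 and 2.32 normalized counts in BDL EHBDs, against 22.3, 74.4, 28.8 and 66.9 in Sham EHBDs. The groups did not overlap, and the log2 fold change of H3c15 was -3.03 (SE 0.85, adjusted p = 0.0171), which did not pass without Sham replicate 2 (0.0590) or Sham replicate 7 (0.0559) and was -3.77 without BDL replicate 3. H3c15 lies beside H2ac19 and H2ac18 on chromosome 3 and shares 64.2% of its stretches with Gm20634, which was lower too (-2.41). H3c1 had 5.11, 4.91, 2.05, 4.91 and 2.32 in BDL EHBDs and no counts in Sham libraries. This made it at least 3.75-fold higher against 3 counts over the group (2.25-fold without Sham replicate 1), and it did not pass without BDL replicate 3 (0.0541). H3c6 (3.65, 0, 3.42, 3.68 and 3.87 in BDL EHBDs, against 14.6, 16.3, 5.24 and 0 in Sham EHBDs) and H3c4 (6.57, 2.46, 2.05, 20.9 and 6.97 in BDL EHBDs, against 23.1, 1.81, 3.93 and 9.22 in Sham EHBDs) overlapped between the groups and did not pass. H3c4 had a log2 fold change of -0.21 with all libraries, 0.10 with totals without acinar markers, 0.88 without Sham replicate 1 and -1.12 without BDL replicate 8.

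What is annotated past the stem-loop was set beside the calls, as a description. The median annotated transcript was 483.5 bases long in the 16 higher members, 1290 bases in the 8 lower members and 774 bases in the 29 that did not pass. Among members with the motif, the annotated end lay a median of 11 bases past the stem-loop in the higher ones. The median was 608.5 bases in the lower ones and 369 bases in those that did not pass. The end lay more than 50 bases past the stem-loop in 4 of 15 higher and 5 of 8 lower members. The same held for 19 of 27 members that did not pass. These distances are on the genome, so that an intron after the stem-loop is counted. Among the higher members, some annotated transcripts stop before the stem-loop is complete and have distances below 0. These are H1f5 (-46), H1f1 (-1), H2ac13 (-40), H2ac12 (-37), H2ac10 (-70) and H2ac15 (-53). Annotated lengths and ends may thus fall short of the true ends of the mRNA. H2bc4, H2bc6, H2ac25, H1f2 and H3c15 are the lower members with such long ends, and H2ac18, H2ac19 and H4c8 are not. The 3 members with a run of at least 8 A before the stem-loop, H2ac24, H2ac23 and H2ac8, were all higher and were the H2A genes of smallest p. The H2A members H2ac4 and H2ac22 also passed, without such a run or, for H2ac22, without the motif. Elsewhere in the annotated transcript, runs of at least 8 A were also in H2ac6 (15) and H1f3 (8), which did not pass. H2bc6 (11) and H2bc4 (8), which were lower, held such runs elsewhere too. Whether these features bear on the counts was not tested.

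**Figure D4:**
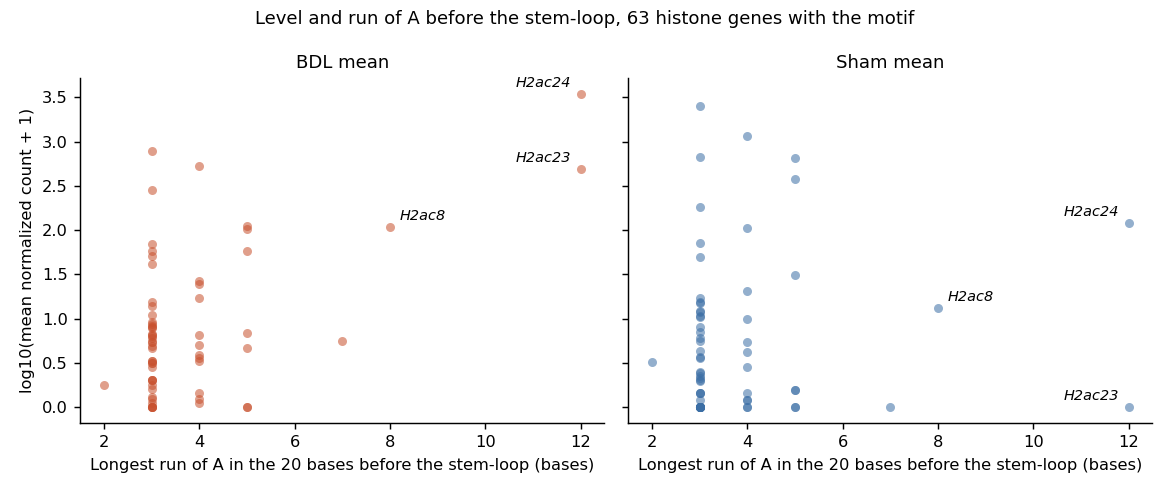
Mean level of the 63 members with the stem-loop motif, as log10(mean normalized count + 1) on the y axis, against the longest run of A in the 20 bases before the stem-loop on the x axis, in BDL (left) and Sham EHBDs (right). H2ac24, with a run of 12, stands highest in BDL EHBDs, whereas in Sham EHBDs H2ac23 is at 0 and several members with runs of 3 to 5 stand above H2ac24.

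The calls were also counted by position in the genome, beside 21.4% higher and 19.9% lower over all genes tested. Of 23 members in the proximal block of chromosome 13, from 21899933 to 22227846, 17 were tested, 9 were higher, among them H2ac24, H2ac23, H1f5 and H4c9, and none was lower. In this block 1 member was lower at an unadjusted p under 0.05 from edgeR, and none with DESeq2. Of 30 members in the distal block of chromosome 13, from 23715220 to 24118834, 26 were tested, 6 were higher and 4 were lower. Of 10 members on chromosome 3, 7 were tested, with 1 higher and 3 lower, and of 3 members on chromosome 11, 1 was lower. Neighbouring genes share sequence, so the counts of a block are not independent. Without overlap, 12 pairs of members start back to back with at most 305 bases between them, and every such pair joins an H2A and an H2B gene. Pairs whose annotated starts overlap, such as H2ac6 (did not pass) and H2bc4 (lower), are not counted. In 9 of the 12 pairs the H2A gene was higher, and of the H2B partners 7 did not pass and 2 had too few counts to test. H2bc24 averaged 2.30 in BDL and 0 in Sham EHBDs beside H2ac24, H2bc23 6.77 in BDL and 2.67 in Sham EHBDs beside H2ac23, and H2bc8 5.29 in BDL and 9.77 in Sham EHBDs beside H2ac8. H2bc23 and H2bc24 share all their stretches with each other.

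Replacement variants, most of which are made from polyadenylated mRNA in all phases of the cell cycle, were measured for comparison. Of 11 such genes, 6 were higher and none was lower (none at an unadjusted p under 0.05 and none with DESeq2), with a median log2 fold change of 0.41. Of all genes tested, 21.4% were higher and 19.9% were lower. Without BDL replicate 8, 1 was lower. H2az1, the variant of promoter nucleosomes, had 17346, 15472, 11916, 18727 and 17439 normalized counts in BDL EHBDs, against 3577, 3997, 3608 and 5102 in Sham EHBDs. The groups lay far apart, with a log2 fold change of 2.04 (SE 0.19, adjusted p = 5.11e-05 from edgeR). H2ax, whose message can end in a stem-loop or a tail and which marks DNA breaks when phosphorylated, had 2762, 1556, 1165, 3422 and 3286 in BDL EHBDs, against 384, 466, 366 and 343 in Sham EHBDs, and the stem-loop motif follows its stop codon. Its log2 fold change was 2.72 (SE 0.31, adjusted p = 0.000148). Macroh2a1 (0.95) and H3f3b (0.69), which encodes H3.3, were higher by less. Cenpa had the largest log2 fold change of the list, at 3.83 (SE 0.87, adjusted p = 0.00635 from edgeR). It had 95.9 to 2170 normalized counts in BDL and 38.5 to 80.7 in Sham libraries. Per kb of annotated transcript, H2az1 stood at 13048 in BDL and 3283 in Sham EHBDs, against 7134 in BDL and 247 in Sham EHBDs for H2ac24. Messages with and without a tail may not be primed alike, so these values do not rank the 2 genes by amount of mRNA.

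Genes that make, trim and carry histones were followed as well, beside 21.4% higher and 19.9% lower over all genes tested. Of 4 genes of histone transcription, Npat, the cyclin E target that binds histone promoters (log2 fold change 0.95, SE 0.14, adjusted p = 0.000552), and Casp8ap2, a partner of NPAT (1.23, SE 0.20, adjusted p = 0.00110), were higher from edgeR and none was lower (none at an unadjusted p under 0.05 and none with DESeq2). Of 12 genes of histone mRNA processing, 9 were higher and none was lower (none at an unadjusted p under 0.05 and none with DESeq2), with a median log2 fold change of 1.29. Slbp, which encodes the stem-loop binding protein, had 5349, 6406, 4761, 3215 and 5605 normalized counts in BDL EHBDs, against 1404, 1277, 1199 and 1162 in Sham EHBDs. No library of the groups overlapped, with a log2 fold change of 2.07 (SE 0.19, adjusted p = 4.63e-05). Eri1, the exonuclease that trims the histone stem-loop, had a log2 fold change of 1.72, the cap-complex partner Srrt 1.34 and Cpsf2, of the cleavage complex, 1.38. Of 3 genes of histone mRNA decay, Upf1, an RNA helicase (0.996), and Lsm1 (0.38) were higher and Tut7, a uridylyltransferase (-0.31), was lower. Lsm1 did not pass without BDL replicate 3 (0.0704), Sham replicate 2 (0.0579) or Sham replicate 5 (0.0986). Tut7 passed without BDL replicates 4, 6 or 8 or Sham replicate 7 but not without BDL replicate 3 (0.0610) or 10 (0.0785) or Sham replicate 1 (0.0753), 2 (0.0711) or 5 (0.0526), and it turned to 0.07 with totals without acinar markers.

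All 8 genes listed with the chaperones that carry histones to new DNA were higher (7 with DESeq2), where 21.4% of all genes tested were. Their median log2 fold change was 2.23. Asf1b, an H3-H4 chaperone, had 2056, 1697, 1275, 1447 and 2264 normalized counts in BDL EHBDs, against 24.0, 19.9, 19.7 and 71.5 in Sham EHBDs. Even the highest Sham library, replicate 7, was far below BDL, and the log2 fold change was 5.84 (SE 0.42, adjusted p = 1.58e-05 from edgeR), or 6.50 without that library. Chaf1a and Chaf1b, the large and middle subunits of chromatin assembly factor 1, had log2 fold changes of 5.28 (SE 0.34, adjusted p = 1.002e-05) and 3.96 (SE 0.28, adjusted p = 1.53e-05). Nasp, which stores H3 and H4, had 2.10. Of 6 chaperones that work outside replication, 3 were higher and none was lower (none at an unadjusted p under 0.05 and none with DESeq2). These were Hjurp, which loads the centromere histone CENP-A (1.21), Hira, which loads H3.3 (0.93), and its partner Cabin1 (0.31), which passed without BDL replicate 3 or 8 but not without any of the other 7 libraries (adjusted p up to 0.118). Cabin1 did not pass with RLE scaling (0.0723), upper-quartile scaling (0.247), no filter (0.111) or Sham replicates 1 and 5 only (0.182), and 2 of this list were then higher.

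**Figure D5:**
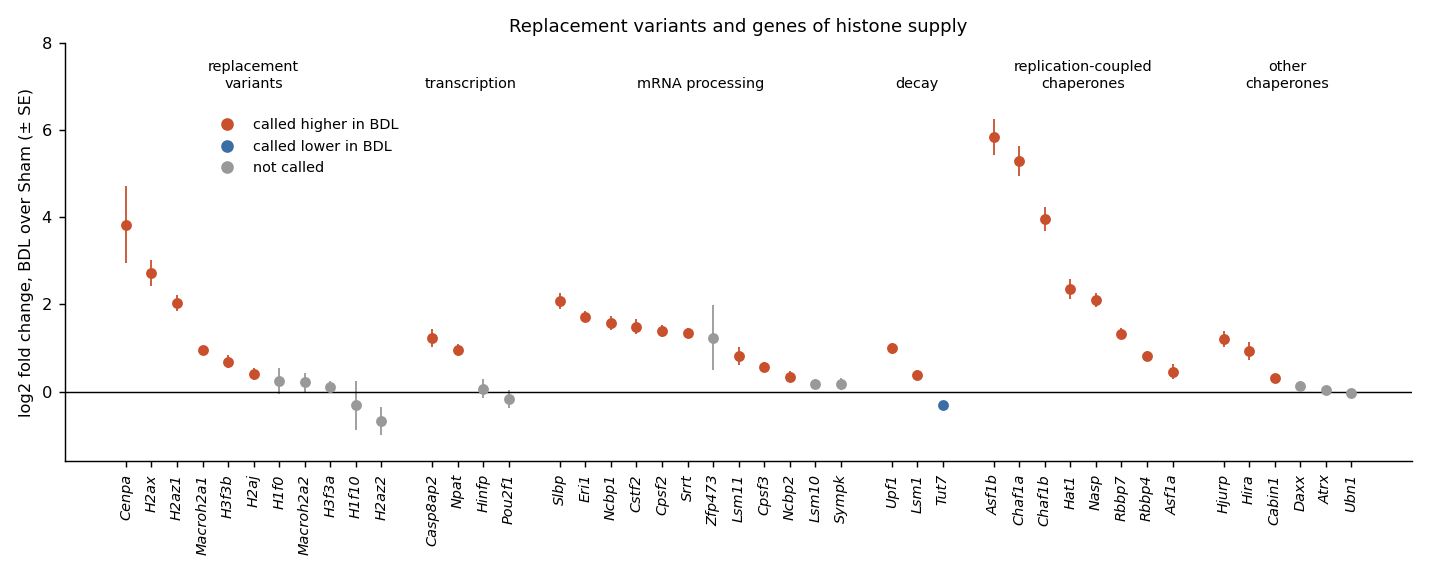
Log2 fold change of BDL over Sham (y axis) with its standard error for 11 replacement variants and 33 genes of histone transcription, mRNA processing, mRNA decay and chaperones, ordered by size within each list on the x axis. Red points passed as higher, blue points as lower and grey points did not pass. The replication-coupled chaperones Asf1b (5.84) and Chaf1a (5.28) stand highest, and all 8 of that list passed.

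Both sexes were in both groups, and the response of the members was compared between them as an interaction. edgeR called none of 53 members and none (0%) of all 21299 genes at an adjusted p under 0.05, with 2 members and 544 genes at an unadjusted p under 0.05. DESeq2 called no member, with 1 at an unadjusted p under 0.05, and 5 of 21191 genes. H1f5 had the smaller edgeR p of the 2 members (unadjusted p = 0.0161, adjusted p = 0.9999). It had 70.8 and 98.4 normalized counts in male BDL mice, against 0 in both male Sham mice, and 44.2, 15.1 and 55.2 in female BDL mice, against 2.62 and 2.31 in female Sham mice. H2ac24 had 4766 and 5263 normalized counts in the 2 male BDL mice and 2625, 1748 and 2790.1 in the 3 female BDL mice, so that both males lay above all females. Its Sham levels were 109.6 and 150.5 in males and 98.3 and 118 in females, and the interaction gave an unadjusted p of 0.0480 and an adjusted p of 0.9999. H2A summed 3.24-fold higher after BDL in males and 1.98-fold higher in females, and H2B 0.304-fold in males and 0.377-fold in females, with 2 or 3 mice per sex and surgery.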

How the data were processed

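RNA was taken from the whole EHBD of 9 mice, 5 BDL and 4 Sham, 24 hours after surgery. The authors made cDNA with a SMART-Seq mRNA kit, sequenced paired ends, and estimated transcript abundance with Salmon against Gencode vM33 on GRCm39. The deposited values are estimated counts per gene, summed from transcripts and given as whole numbers. The sex of each mouse came from the deposited sample sheet.

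Of 55822 gene IDs, 55261 matched Gencode vM39 on GRCm39, which gave symbols, positions, transcripts and sequences, so that transcript ends may differ from those used for counting. Genes with a summed count of at least 10 were fitted with edgeR 4.0.16 in R 4.3.3 (TMM scaling, quasi-likelihood test, sex and surgery as terms), with Benjamini-Hochberg adjustment over 21299 genes and a threshold of 0.05. Standard errors (SE) were the log2 fold change over the square root of F. Levels are counts over DESeq2 1.42.0 size factors. Bounds assume 3 counts in the summed Sham libraries and reads split between copies as counted. The p-values of genes set the difference between the groups against the spread between mice. Counts were split among close copies by estimation, and 31-base stretches were compared over annotated transcripts. The fit was tested on simulated data.

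Members and lists were chosen with earlier results of these data known. Values in every library are given, per class, for the 3 higher members of smallest p, the 3 of highest mean count per kb, each lower member, and members at 0 in 1 group with a mean of at least 100 in the other. From each other list up to 4 genes of smallest p per direction are named. Genes named outside this rule, such as H2ac4, H1f3, Cenpa and the H2B partners, were chosen after their values were seen. The alternatives were upper-quartile and RLE scaling, DESeq2, totals without acinar markers, no filter, filterByExpr, no sex term, Sham replicates 1 and 5 only, classes summed, and each library left out. Added after seeing the data were sums of the H2ac23 and H2ac24 pair and of the H2ac18 and H2ac19 pair, TMM scaling of class sums, and the H2A sum without H2ac23 and H2ac24.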

Additional observations from a re-analysis of the deposited data

Results flagged for a closer look

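In 50 groups of 4 or 5 libraries, the highest or lowest library was set against the rest of its group by Dixon's rule at the 95% level, and 4 groups had a library that stood apart, where chance gives about 1 in 20. The H2A sum had 2227 normalized counts in Sham replicate 2, the highest of its group, and the next Sham library had 1747. H2bc6 had 219 normalized counts in Sham replicate 1, the highest of its group, and the next Sham library had 170.5. H3c6 was at 0 in BDL replicate 4, where the next lowest BDL library had 3.42 normalized counts. H3c4 had 20.9 normalized counts in BDL replicate 8, and the next BDL library had 6.97.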

How the results depend on the processing

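Over the genes named by the rule and the other higher members, 718 values under the alternatives kept their direction and side of the threshold, 76 lost the call and 12 changed sign. All 67 members had 16 higher in the fit reported, 9 with filterByExpr (26 tested) and 9 with Sham replicates 1 and 5 only. With filterByExpr, 1 H1, 6 H2A and 0 H3 members were higher. With Sham replicates 1 and 5 only, 1 H1, 6 H2A and 0 H3 members were higher, 0 H1 and 0 H3 members were lower, and of the mRNA decay genes 1 was higher and 0 were lower. With totals without acinar markers 0 H1 members and 0 decay genes were lower, with upper-quartile scaling 1 decay gene was higher, and with no filter 1 decay gene was higher and 0 were lower. The cause was not tested. With 1 library left out, 10 to 15 members were higher: 1 to 2 of H1, 6 to 10 of H2A and 0 to 1 of H3. Lower were 0 to 1 of H1, 0 to 1 of H3, 1 to 2 of H4, 0 to 1 replacement variants and 0 to 1 decay genes, and 1 to 2 decay genes were higher. The log2 ratio of the all-member sum was 0.05, -0.052 with upper-quartile scaling, 0.47 with totals without acinar markers and -0.0759 to 0.18 with 1 library left out, that of H4 was 0.11, 0.53 with those totals and -0.0136 to 0.28 with 1 library left out, and that of H2A was 1.32, or -1.42 without H2ac23 and H2ac24. The log2 fold change of H1f4 was -0.017 with RLE, -0.12 with upper-quartile scaling, -0.013 with filterByExpr and -0.14 to 0.31 with 1 library left out. H2bc21 was 0.15 with totals without acinar markers and -0.53 to 0.021 with 1 library left out, H3c4 was 0.10 and -1.12 to 0.88, and Tut7 was 0.069 with those totals. Those totals moved the median of all genes to 0.34, beside -0.03, and 72.9% of calls were then higher, beside 51.8%. No paired analysis was made, because the labels do not say which mice were littermates or matched. Members with a few counts per library are at the limit of this depth.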
